A study of Mus musculus with 22 samples.

Results

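The 10 genes described here belong to the liver's non-collagenous matrix and were measured across 22 livers of mice fed chow or a methionine- and choline-deficient (MCD) diet. They are the proteoglycans *Lum*, *Dcn*, *Bgn* and *Vcan*, the adhesive glycoprotein *Fn1*, the matricellular genes *Sparc*, *Postn* and *Thbs1*, and the cross-linking enzymes *Lox* and *Loxl2*. They were taken by symbol from the table of raw gene counts, where each matched 1 of 55573 rows, and 9 of the 10 had a mean count of at least 10 and were tested among 14062 genes. *Vcan* fell under that minimum and is described by its counts.

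Each library was made from 1 mouse on a C57BL/6 background. Cre mice carried intact *Flcn* and the Albumin-Cre transgene (Flcn WT/WT; Albumin-Cre+/-), and FLCN KO mice carried floxed *Flcn* with the same transgene (Flcn f/f; Albumin-Cre). There were 6 Cre mice and 5 FLCN KO mice on chow (Cre Chow, FLCN KO Chow) and 5 Cre mice and 6 FLCN KO mice on the MCD diet (Cre MCD, FLCN KO MCD), with diets started at 6 weeks of age and fed for 6 weeks. The albumin promoter drives Cre in hepatocytes, so the stellate cells, fibroblasts and endothelial cells that make most matrix were not the targeted cells, and both genotypes carried Cre.

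Small leucine-rich proteoglycans such as lumican, decorin and biglycan bind collagen fibrils and set their spacing and thickness, while versican is a large hyaluronan-binding proteoglycan of provisional matrix. Matricellular proteins such as SPARC, periostin and thrombospondin-1 are secreted into the matrix to tune cell behaviour and fibril assembly more than to carry load, and lysyl oxidases cross-link collagen and elastin. In liver many of these genes are expressed by stellate cells and portal fibroblasts, among other cells, and rise in scarring. *Fn1* is also expressed by hepatocytes, which make plasma fibronectin. In whole liver, more cells of a type and more RNA per cell cannot be told apart.

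The 10 genes lie on 9 chromosomes of the mouse genome (GRCm38, GENCODE M21), with *Lum* and *Dcn* as neighbours on chromosome 10, at chr10:97565128-97572703 and chr10:97479609-97518143, and *Bgn* at chrX:73483602-73495933. *Vcan* is at chr13:89655312-89742509, *Fn1* at chr1:71585520-71653200, *Sparc* at chr11:55394500-55423183 and *Postn* at chr3:54361109-54391037. *Thbs1* is at chr2:118111876-118127133 and *Loxl2* at chr14:69609068-69695834. Exons of *Fn1*, *Thbs1*, *Lox* and *Loxl2* share 2.5%, 3.4%, 0.63% and 5.7% of their bases with other annotated genes, and strand use in counting is not given in the sources used here.

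Promoter windows of RefSeq (GRCm38.p6) were at hand for 4 of the 10 genes, *Bgn*, *Postn*, *Sparc* and *Vcan*, and not for *Lum*, *Dcn*, *Fn1*, *Thbs1*, *Lox* and *Loxl2*. The windows were searched on both strands, over the 250 bases before the start, for 6 motifs, given with the share of 32851 such windows that hold them. They were the E-box core CACGTG (6.02%), the AP-1 site TGANTCA (6.75%), the GC box GGGCGG (32.7%), the TEAD site CATTCC (12.6%), the TATA box TATAAA (12.4%) and the CCAAT box, spelled CCAAT (33.8%). Those of *Bgn* and *Sparc* are shown because their response to diet differed between the genotypes, and those of *Vcan* and *Postn* because they held a match. Every match is in capitals. The windows lie at chrX:73483351-73483600 (plus strand), chr11:55420081-55420330 (minus strand), chr13:89742513-89742762 (minus strand) and chr3:54360857-54361106 (plus strand).
Bgn: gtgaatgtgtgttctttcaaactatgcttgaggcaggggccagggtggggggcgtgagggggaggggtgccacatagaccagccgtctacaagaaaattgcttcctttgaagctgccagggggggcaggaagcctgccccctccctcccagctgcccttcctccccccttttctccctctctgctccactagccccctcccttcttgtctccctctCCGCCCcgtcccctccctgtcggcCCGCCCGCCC
Sparc: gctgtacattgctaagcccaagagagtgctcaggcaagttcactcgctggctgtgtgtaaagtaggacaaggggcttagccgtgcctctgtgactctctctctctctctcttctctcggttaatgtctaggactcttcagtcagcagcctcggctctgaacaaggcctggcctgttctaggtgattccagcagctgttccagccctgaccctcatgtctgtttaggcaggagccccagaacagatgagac
Vcan: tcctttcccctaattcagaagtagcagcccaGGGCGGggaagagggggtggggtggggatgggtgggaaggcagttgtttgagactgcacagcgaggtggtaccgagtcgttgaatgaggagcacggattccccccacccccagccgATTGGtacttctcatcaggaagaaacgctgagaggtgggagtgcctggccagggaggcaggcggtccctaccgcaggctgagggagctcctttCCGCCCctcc
Postn: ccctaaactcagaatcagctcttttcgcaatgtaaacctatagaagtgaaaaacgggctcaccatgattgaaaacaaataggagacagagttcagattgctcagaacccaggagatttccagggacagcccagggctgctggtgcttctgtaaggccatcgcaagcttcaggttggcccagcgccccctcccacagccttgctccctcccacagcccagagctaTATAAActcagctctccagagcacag
The *Bgn* window held 3 matches to GGGCGG, of which 2 overlap and end at the base before the start. The *Vcan* window held 2 matches to GGGCGG and 1 to CCAAT, and the *Postn* window 1 to TATAAA. A second *Postn* window and that of *Sparc* held 0 matches. A match is a run of letters, not a site shown to be bound.

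Counts on genes ran from 13751347 to 21144388 per library. Levels are given as CPM, the counts of a gene relative to its library's total, scaled by TMM factors, which adjust library sizes so that most genes do not differ. *Flcn* itself, counted over all of its exons, was lower in FLCN KO than in Cre mice on chow (20.4 ± 2.78 against 31.7 ± 4.91 CPM, SD, n = 5 and 6), with a log2 fold change of −0.63 (SE 0.17, edgeR adjusted p = 0.025). On MCD it was 26.0 ± 5.13 against 29.2 ± 8.42 CPM (n = 6 and 5, edgeR adjusted p = 0.567). Reads from outside the deleted part do not check the deletion, and *Flcn* reads from cells that are not hepatocytes remain.

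Some libraries stood apart before any comparison. Cre MCD 3 held RNA of skeletal muscle genes, with a summed level of 3720 CPM over 15 markers against at most 181 CPM in any other library, and all 15 were highest in it. *Myh1*, a fast muscle myosin, had the highest mean CPM of them, at 608 CPM in Cre MCD 3 and at most 26.3 CPM elsewhere. The same library was highest of all 22 for *Lum*, *Postn*, *Thbs1* and *Lox*, and highest of its group for these and *Fn1*, so 5 of the 10 genes, beside 30.9% of all tested genes. Results are therefore also given without it. A second split concerned chow. The quality measures of the study gave 5 chow libraries a smaller uniquely mapped share than the others (Cre Chow 1, 5 and 6 and FLCN KO Chow 1 and 3, the low mapped chow libraries). They were also the 5 chow libraries with a male pattern of sex-linked genes, so sex and mapped share cannot be told apart there. Leaving them out leaves only female livers on chow, while both MCD groups keep both sexes. Diet and interaction values without them therefore also differ in sex between the diets.

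**Figure D1:**
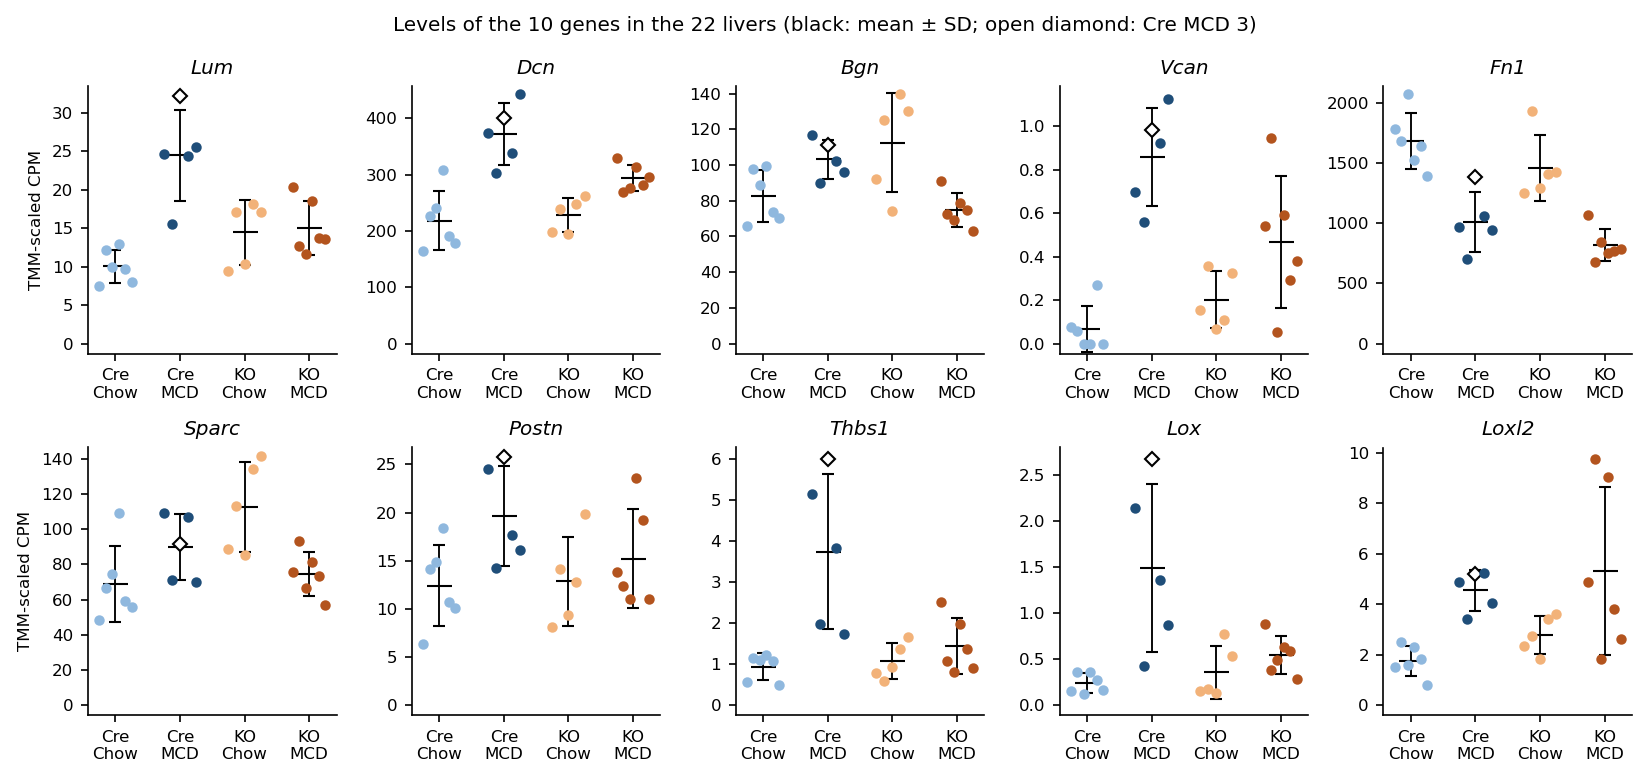
Level of each of the 10 genes in each of the 22 livers, as TMM-scaled CPM on linear axes. Points are single mice, the black bar and whiskers are the mean ± SD of a group and the open diamond is Cre MCD 3. *Lum*, *Thbs1*, *Lox* and *Loxl2* in Cre MCD lie above every Cre Chow liver, *Fn1* on MCD lies below chow in both genotypes, and *Bgn* and *Sparc* are highest in FLCN KO Chow.

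The levels spanned several orders of magnitude. Per kilobase of exon in Cre Chow livers, *Fn1* had the highest level, 144 ± 20.1 CPM per kb (SD, n = 6), followed by *Dcn* at 37.3 ± 9.0, *Sparc* at 18.2 ± 5.70 and *Bgn* at 13.5 ± 2.41 CPM per kb. *Lum* stood at 4.10 ± 0.892 and *Postn* at 1.43 ± 0.487 CPM per kb. The lowest were *Loxl2* at 0.325 ± 0.112, *Thbs1* at 0.154 ± 0.0537, *Lox* at 0.0503 ± 0.0227 and *Vcan* at 0.00473 ± 0.00726 CPM per kb. *Sparc* and *Bgn* were the only neighbours in this order that did not differ by more than their SDs. The order of the group means was the same in all 4 groups. In Cre MCD livers *Dcn* at 63.8 ± 9.32 CPM per kb came within the SDs of *Fn1* at 86.5 ± 21.2 CPM per kb (n = 5). The share of *Fn1* in the summed per-kilobase level of the 10 genes was 65.9% in Cre Chow, 56.8% in FLCN KO Chow, 41.8% in Cre MCD and 43.2% in FLCN KO MCD, and that of *Dcn* was 17.0%, 17.8%, 31.4% and 31.3%.

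The first comparison asked how the matrix genes respond to the MCD diet, a dietary model of steatohepatitis with fibrosis, when *Flcn* is intact. Of the 9 tested genes, 6 rose (*Lum*, *Dcn*, *Postn*, *Thbs1*, *Lox* and *Loxl2*), 1 fell (*Fn1*), and *Bgn* and *Sparc* did not pass. The diet moved much of the transcriptome: 57.5% of all tested genes were called, 29.3% up and 28.2% down, and a median log2 fold change of 0.77 over the 9 genes stood beside 0.01 over all genes. The groups did not overlap for 5 of the 9 genes, beside 32.5% of all tested genes.

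*Lum*, which encodes the keratan sulphate proteoglycan lumican, ranged in Cre Chow from 7.43 to 12.9 CPM with a median of 9.87. In Cre MCD livers 1 to 5 it was 24.6, 15.5, 32.2, 24.4 and 25.6 CPM. Every MCD liver was above every chow liver, with a log2 fold change of 1.28 (SE 0.21, 2.43-fold, edgeR adjusted p = 1.98e-05). *Dcn*, encoding decorin, a proteoglycan that also binds TGF-beta, ranged in Cre Chow from 165 to 308 CPM with a median of 208. In Cre MCD it was 375, 303, 401, 339 and 444 CPM. The highest chow liver, Cre Chow 4, reached into the MCD range, and the log2 fold change was 0.77 (SE 0.14, edgeR adjusted p = 5.83e-05).

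*Thbs1* and *Lox* had larger fitted changes at low levels. *Thbs1*, whose product releases latent TGF-beta, ranged in Cre Chow from 0.482 to 1.22 CPM with a median of 1.1, and in Cre MCD it was 5.15, 1.98, 6.00, 3.83 and 1.74 CPM. No MCD liver fell into the chow range, but livers 2 and 5 were close above it, and the log2 fold change was 1.98 (SE 0.37, edgeR adjusted p = 1.16e-04). *Lox*, the founding lysyl oxidase, at chr18:52516067-52529867, had 2 to 6 reads in each Cre Chow library (0.124 to 0.365 CPM, median 0.216) and 52, 10, 57, 28 and 17 reads in Cre MCD livers 1 to 5 (2.14, 0.431, 2.67, 1.36 and 0.871 CPM). Its log2 fold change was 2.58 (SE 0.49, edgeR adjusted p = 1.19e-04). *Loxl2*, a second enzyme of the family, rose from 1.76 ± 0.608 to 4.56 ± 0.804 CPM (SD, n = 6 and 5) without overlap, by 1.36 on the log2 scale (SE 0.36, edgeR adjusted p = 0.00255). Without both Cre MCD 3 and the low mapped chow libraries it was 1.04 and did not pass (edgeR adjusted p = 0.067).

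*Postn*, encoding periostin, rose less, from 12.4 ± 4.24 to 19.7 ± 5.17 CPM (SD, n = 6 and 5), with overlapping groups and a log2 fold change of 0.66 (SE 0.26, edgeR adjusted p = 0.037). The call was lost when Cre MCD 1, Cre MCD 3, Cre Chow 1, Cre Chow 5 or Cre Chow 6 was left out, with 0.54 without Cre MCD 3 (edgeR adjusted p = 0.098). Without the 5 low mapped chow libraries, which leaves only females on chow, it was 0.32 (edgeR adjusted p = 0.323). *Bgn*, encoding biglycan, had a log2 fold change of 0.32 (95% interval 0.02 to 0.62, edgeR adjusted p = 0.065), and *Sparc*, encoding a collagen-binding glycoprotein, one of 0.38 (95% interval −0.01 to 0.77, edgeR adjusted p = 0.089). *Bgn* passed as higher under DESeq2 (adjusted p = 0.047), with 10 counts required in every library, with only the groups compared, and when Cre Chow 2, Cre Chow 4, Cre MCD 2 or FLCN KO Chow 3 was left out, and *Sparc* passed without Cre Chow 4 (0.56, edgeR adjusted p = 0.0077).

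*Fn1* went the other way. It ranged in Cre Chow from 1389.8 to 2072 CPM with a median of 1662, and in Cre MCD livers 1 to 5 it was 965, 703, 1385, 1059 and 942 CPM. Cre MCD 3, the highest of its group, lay just below the lowest chow liver, and the log2 fold change was −0.74 (SE 0.16, edgeR adjusted p = 3.84e-04). It was −0.88 when Cre MCD 3 was left out. Scaled by total counts instead of TMM, where the median of all genes stood at 0.43, *Fn1* was −0.32 and did not pass (edgeR adjusted p = 0.064), while *Bgn* (0.74) and *Sparc* (0.80) passed as higher, with differences of −0.76, 0.30 and 0.37 relative to that median. Of 8 hepatocyte markers 6 fell on MCD in Cre mice and 5 in FLCN KO mice, beside 28.2% and 22.5% of all tested genes. The part of hepatocyte RNA in the *Fn1* result was not tested. With Cre MCD 3 left out, 5 of the 9 genes rose and 1 fell in Cre mice, with 58.4% of all genes called, 29.4% up and 29.0% down.

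**Figure D2:**
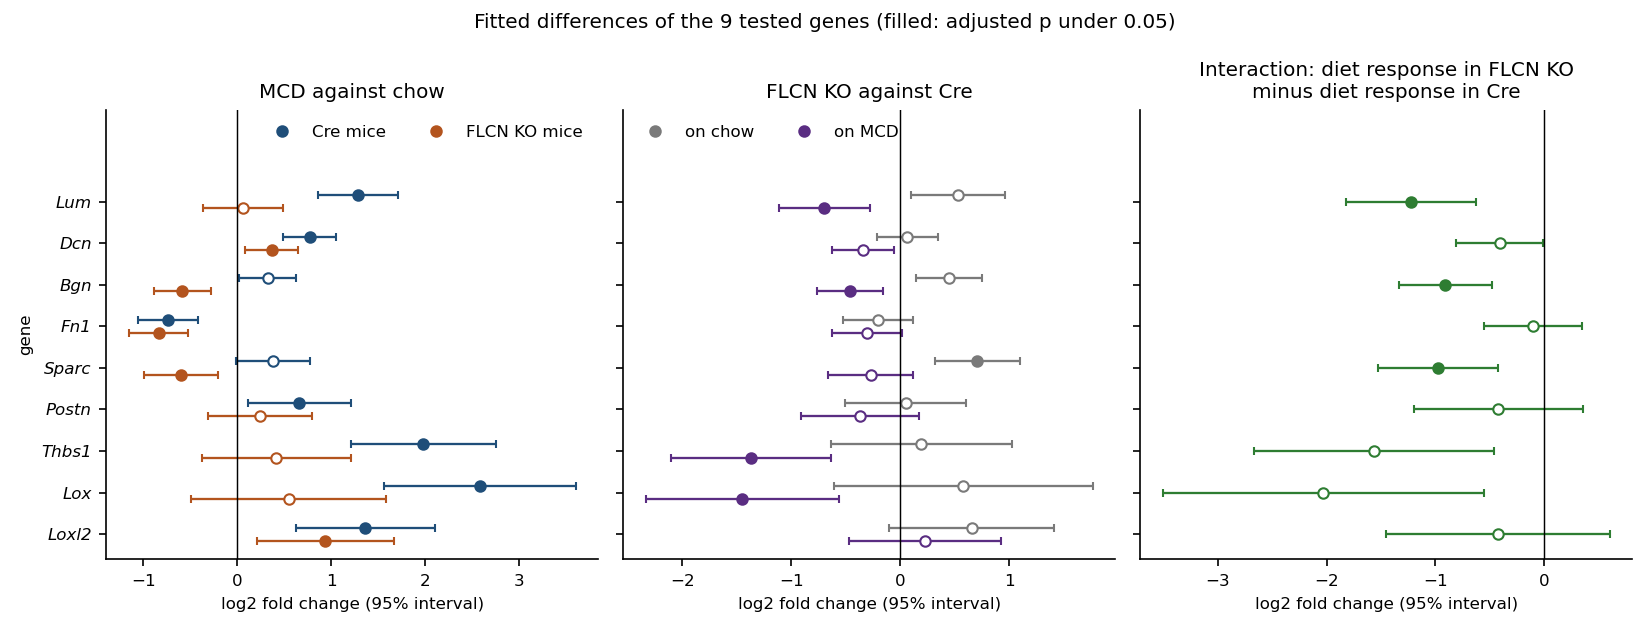
Fitted log2 fold changes of the 9 tested genes with 95% intervals, for MCD against chow (left), FLCN KO against Cre (middle) and their interaction (right). Filled points passed an edgeR adjusted p of 0.05. The interaction estimates of all 9 genes lie below 0, and those of *Lum*, *Bgn* and *Sparc* passed.

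The same diet comparison in FLCN KO mice asked how these genes respond without hepatic *Flcn*. Here 2 of the 9 rose (*Dcn* and *Loxl2*) and 3 fell (*Bgn*, *Fn1* and *Sparc*), while 45.0% of all tested genes were called, 22.5% up and 22.5% down. The median log2 fold change over the 9 genes was 0.24 beside 0.00 over all genes, and the groups did not overlap for 2 of them, beside 29.2% of all tested genes.

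*Bgn* in FLCN KO Chow livers 1 to 5 was 92.1, 125, 74.5, 140.0 and 130.5 CPM, and in FLCN KO MCD it ranged from 62.9 to 91.2 CPM with a median of 73.7. The 3 high chow livers (2, 4 and 5) and FLCN KO Chow 1 stood above every MCD liver, and FLCN KO Chow 3 did not. The log2 fold change of *Bgn* was −0.59 (SE 0.15, edgeR adjusted p = 0.00242). *Sparc* in FLCN KO Chow was 88.9, 113, 85.6, 134 and 142 CPM and in FLCN KO MCD it ranged from 56.9 to 93.5 CPM with a median of 74.5. FLCN KO MCD 2 alone reached into the chow range, and the log2 fold change was −0.60 (SE 0.19, edgeR adjusted p = 0.013). Scaled by total counts, where the median of all genes stood at 0.27, *Bgn* and *Sparc* were each −0.33 and did not pass (edgeR adjusted p = 0.085 and 0.168), or −0.59 and −0.60 relative to that median.

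*Fn1* fell here too. In FLCN KO Chow it was 1251, 1933, 1296, 1410.1 and 1423 CPM, and in FLCN KO MCD it ranged from 679 to 1073 CPM with a median of 779. The groups were separate, with a log2 fold change of −0.84 (SE 0.15, edgeR adjusted p = 1.4e-04). *Dcn* in FLCN KO Chow was 199, 238, 195, 249 and 261 CPM, all below the FLCN KO MCD range of 269 to 330 CPM (median 289), with a log2 fold change of 0.37 (SE 0.14, edgeR adjusted p = 0.034). Without the low mapped chow libraries this was 0.24 and did not pass (edgeR adjusted p = 0.127), nor did it when FLCN KO Chow 1 or 3 or FLCN KO MCD 1 or 4 was left out.

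*Loxl2* rose from 2.78 ± 0.747 to 5.33 ± 3.33 CPM (SD, n = 5 and 6), by 0.93 on the log2 scale (SE 0.35, edgeR adjusted p = 0.034). FLCN KO MCD 2 and 4, at 9.77 and 9.04 CPM, were the 2 highest livers of the series for it, and FLCN KO MCD 3, at 1.84 CPM, was below 4 of the 5 chow livers. Leaving out FLCN KO MCD 2, FLCN KO MCD 4 or any of FLCN KO Chow 1, 2 and 3 ended the call, with edgeR adjusted p up to 0.114, and without the low mapped chow libraries it was 0.171. The mean on MCD was 0.85 times that on chow in females and 3.81 times in males, and with sex as a covariate the call was lost (0.83, edgeR adjusted p = 0.066). *Lum* (log2 fold change 0.06, 95% interval −0.37 to 0.48), *Postn* (0.24, −0.31 to 0.79), *Thbs1* (0.41, −0.38 to 1.21) and *Lox* (0.55, −0.49 to 1.58) did not pass. With Cre MCD 3 left out the 9 genes gave the same counts in FLCN KO mice, with 46.8% of all genes called.

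Whether the diet response itself differed between the genotypes was tested as the interaction, the log2 fold change in FLCN KO minus that in Cre mice. It was negative for all 9 genes, with a median of −0.91 beside 0.03 over all genes. It passed for 3, beside 8.83% of all tested genes called 3.29% up and 5.54% down. *Lum* had −1.22 (SE 0.29, edgeR adjusted p = 0.012), *Sparc* −0.98 (SE 0.27, edgeR adjusted p = 0.026) and *Bgn* −0.91 (SE 0.21, edgeR adjusted p = 0.010). For *Fn1* the estimate was −0.10 (95% interval −0.55 to 0.35), and it changed sign without Cre MCD 3 or FLCN KO Chow 2. The largest estimates in size, *Lox* at −2.03 (95% interval −3.51 to −0.55, edgeR adjusted p = 0.074) and *Thbs1* at −1.56 (−2.67 to −0.46, edgeR adjusted p = 0.068), did not pass, and neither did *Dcn* at −0.41, *Postn* at −0.42 and *Loxl2* at −0.43. *Thbs1* passed under DESeq2 (adjusted p = 0.039), with total counts, and when Cre MCD 2, Cre MCD 5 or FLCN KO MCD 1 was left out, and *Lox* passed without Cre MCD 2 (edgeR adjusted p = 0.029). The same 3 genes passed when Cre MCD 3 was left out, with 10.1% of all genes called and 6.01% down. Without the low mapped chow libraries *Sparc* did not (−0.91, edgeR adjusted p = 0.051), nor did it without any 1 of Cre MCD 1, Cre MCD 4, FLCN KO Chow 4 and FLCN KO Chow 5. With a block for replicate number *Lum* and *Sparc* did not pass (edgeR adjusted p = 0.0502 and 0.056), while *Bgn* did.

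The genotypes were also compared within each diet. These comparisons share their libraries with the diet comparisons, so the values are set side by side and are not separate evidence. On chow 1 of the 9 genes passed, *Sparc*, which was higher in FLCN KO mice by 0.71 on the log2 scale (SE 0.19, edgeR adjusted p = 0.021), beside 8.62% of all genes called, 5.52% up and 3.10% down. *Sparc* ranged in Cre Chow from 48.6 to 109 CPM with a median of 62.9, so that Cre Chow 4 alone overlapped the FLCN KO livers given above. *Bgn* (log2 fold change 0.45, 95% interval 0.14 to 0.75, edgeR adjusted p = 0.060) and *Lum* (0.53, 0.10 to 0.96, edgeR adjusted p = 0.118) were also higher in value without passing. *Bgn* passed under DESeq2 (adjusted p = 0.034), with total counts, without the low mapped chow libraries (0.47, edgeR adjusted p = 0.046) and when Cre Chow 2, Cre Chow 4, FLCN KO Chow 1 or FLCN KO Chow 3 was left out, and *Lum* with total counts. The *Sparc* call was lost without FLCN KO Chow 4 or 5 and without the low mapped chow libraries (0.64, edgeR adjusted p = 0.113), and it held without Cre MCD 3.

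On MCD 4 of the 9 genes were lower in FLCN KO than in Cre mice and 0 were higher, beside 16.6% of all genes called, 8.06% up and 8.53% down. The groups overlapped for all 9 genes in both genotype comparisons, where 6.94% of all tested genes on chow and 8.61% on MCD did not overlap. They were *Thbs1* (−1.37, SE 0.35, edgeR adjusted p = 0.00977), *Lox* (−1.45, SE 0.43, edgeR adjusted p = 0.022), *Lum* (−0.70, SE 0.20, edgeR adjusted p = 0.020) and *Bgn* (−0.46, SE 0.15, edgeR adjusted p = 0.033). In FLCN KO MCD livers *Lum* ranged from 11.6 to 20.3 CPM (median 13.6), *Thbs1* from 0.811 to 2.51 CPM (median 1.22) and *Lox* from 0.286 to 0.887 CPM (median 0.536). Cre MCD 2 lay within the FLCN KO MCD range for each of the 4 genes, and Cre MCD 5 also did for *Thbs1* and *Lox*. Without Cre MCD 3, *Thbs1* alone passed (−1.13, edgeR adjusted p = 0.031). *Lum* was then −0.58 (edgeR adjusted p = 0.058), *Bgn* −0.43 (edgeR adjusted p = 0.062) and *Lox* −1.14 (edgeR adjusted p = 0.069), so the count fell from 4 to 1 beside 16.8% of all genes called and 8.31% down. The *Bgn* call was also lost without Cre MCD 1 or 4 or FLCN KO MCD 2, 3, 5 or 6, and that of *Lox* without Cre MCD 1 or FLCN KO MCD 6. A block for replicate number ended the calls of *Bgn* and *Lox*, and lifting the minimum count ended that of *Bgn*. *Dcn* had −0.34 (95% interval −0.62 to −0.06, edgeR adjusted p = 0.093), and it passed with only the groups compared, without Cre Chow 4 and without the low mapped chow libraries (edgeR adjusted p = 0.029).

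*Vcan* was at the edge of detection. Its reads numbered 6 over the 6 Cre Chow libraries, from 0 to 4 each, and 17, 13, 21, 19 and 22 in Cre MCD livers 1 to 5, or 92 in all. FLCN KO livers held 17 reads on chow (2, 6, 1, 2 and 6) and 62 on MCD (1 to 22 each). All Cre MCD livers were above all Cre Chow livers, while FLCN KO MCD spread from 0.0541 to 0.947 CPM and overlapped both. The ratio of summed reads per scaled library size was 12.5 for MCD against chow in Cre mice (95% exact interval 5.54 to 35.0) and 2.33 in FLCN KO mice (1.35 to 4.25), where the intervals cover counting error only and no spread between mice. Cre Chow 5 held 4 of the 6 Cre Chow reads, and without it the ratio in Cre mice was 31.3 (8.43 to 263). With the minimum count lifted, which tested 32124 genes, *Vcan* rose in Cre mice (log2 fold change 3.56, SE 0.66, edgeR adjusted p = 7.1e-05, 26.8% of all genes called) and did not pass in FLCN KO mice (edgeR adjusted p = 0.173, 18.9% called) or for the interaction (−2.38, edgeR adjusted p = 0.183, 2.65% called).

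Ratios of genes within a library do not depend on how libraries are scaled. Relative to *Dcn*, per kilobase, *Bgn* stood between 30.9 and 41.5% in Cre Chow and between 20.7 and 29.9% in Cre MCD, and it fell from between 36.7 and 53.9% to between 20.4 and 26.5% in FLCN KO mice. Within each genotype every MCD liver lay below every chow liver. *Sparc* relative to *Dcn* was 67.9 to 83.6% in FLCN KO Chow, above all other livers, where it ran from 24.4 to 54.6%. *Lum* relative to *Dcn* was 9.93 to 12.8% in Cre Chow and 12.2 to 19.2% in Cre MCD, where the upper end was Cre MCD 3, and 11.3 to 17.4% and 10.0 to 14.7% in FLCN KO Chow and FLCN KO MCD. These ratios were chosen after the values were seen and were not tested.

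**Figure D3:**
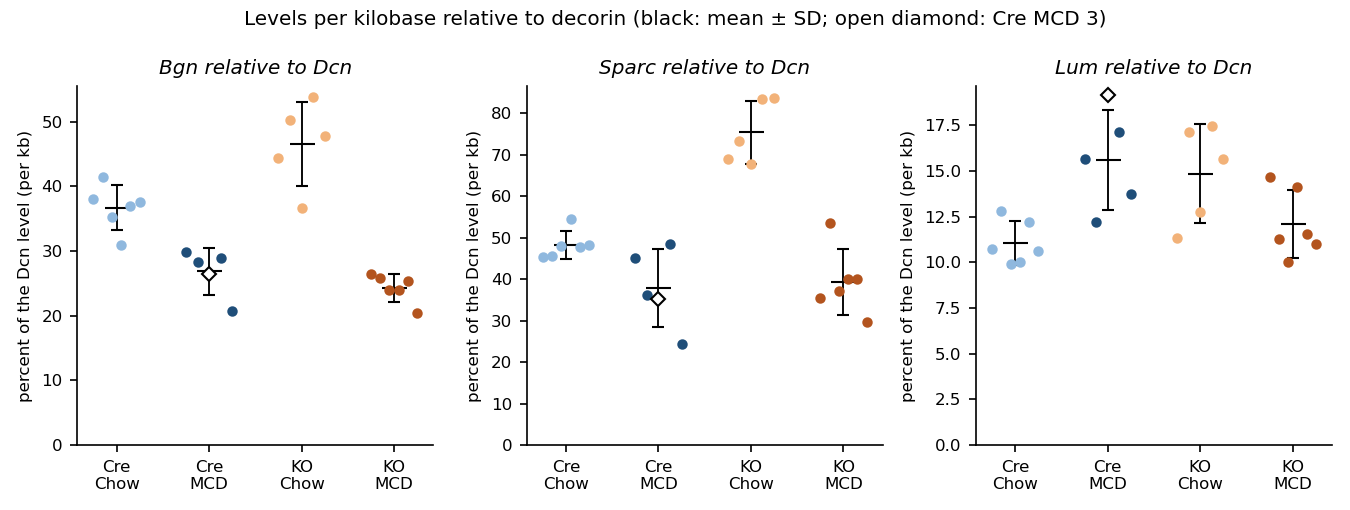
*Bgn*, *Sparc* and *Lum* per kilobase as a percent of *Dcn* per kilobase in the same liver, by group. Points are single mice, the black bar and whiskers are the mean ± SD and the open diamond is Cre MCD 3. *Bgn* relative to *Dcn* is lower on MCD than on chow in both genotypes without overlap, and *Sparc* relative to *Dcn* is highest in FLCN KO Chow.

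Sex read from the counts was spread over all groups (3 female and 3 male livers in Cre Chow and FLCN KO MCD, 3 and 2 in Cre MCD and FLCN KO Chow), and ratios were taken within it. With so few livers on each side, MCD and chow did not overlap for 53.4% of all tested genes in female and 52.4% in male FLCN KO mice. The ratio of mean *Lum* on MCD to that on chow was 1.87 in female and 3.38 in male Cre livers, and 0.74 and 1.73 in female and male FLCN KO livers. It was lower in FLCN KO than in Cre mice in both sexes, but *Lum* in FLCN KO mice was lower on MCD in females and higher in males, each without overlap. For *Bgn* these ratios were 1.06 and 1.53 in Cre mice and 0.52 and 0.97 in FLCN KO mice, and for *Sparc* 1.00 and 1.82 against 0.51 and 0.96. *Bgn* and *Sparc* in FLCN KO mice did not overlap between diets in the females and overlapped in the males. The low mapped chow libraries are the male ones, and the part of either in this difference was not tested. In FLCN KO mice *Lox*, *Thbs1*, *Postn* and *Vcan* had MCD to chow ratios of 4.39, 2.16, 1.91 and 6.23 in males, each without overlap, and of 0.91, 0.85, 0.88 and 0.92 in females, each with overlap. The male chow side was 2 livers with 2 *Lox* reads each and 3 *Vcan* reads in all, so the ratios of these genes rest on very few reads. The difference between the sexes was not tested. With sex as a covariate the interactions of *Lum* (−1.20, edgeR adjusted p = 0.014), *Bgn* (−0.86, edgeR adjusted p = 0.0096) and *Sparc* (−0.95, edgeR adjusted p = 0.027) passed.

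Markers of the cells that make these proteins were read in the same comparisons. The 6 activated myofibroblast markers summed to 53.0 ± 18.1 CPM in Cre Chow, 170 ± 69.6 in Cre MCD, 83.9 ± 34.2 in FLCN KO Chow and 59.3 ± 21.6 CPM in FLCN KO MCD (SD, n = 6, 5, 5 and 6). All 6 rose on MCD in Cre mice and all 6 were lower in FLCN KO than in Cre mice on MCD, with and without Cre MCD 3. Of all tested genes, 29.3% rose on MCD in Cre mice and 8.53% were lower in FLCN KO mice on MCD. Without Cre MCD 3 these shares were 29.4% and 8.31%. *Col1a1*, the fibrillar collagen most used as a scar marker, had an interaction of −2.99 (SE 0.55, edgeR adjusted p = 0.00272), *Col3a1*, with the highest CPM of the 6, one of −2.25 (edgeR adjusted p = 0.00971), and *Acta2*, encoding smooth muscle actin, one of −2.09 (edgeR adjusted p = 0.0998). The 10 stellate cell markers, led by *Reln*, summed to 147 ± 34.6, 213 ± 75.2, 169 ± 40.0 and 155 ± 17.4 CPM in the same order of groups, and 181 CPM in Cre MCD without Cre MCD 3, which alone held 342 CPM. Of them 5 rose and 2 fell on MCD in Cre mice, and 4 and 1 without Cre MCD 3. Beside these stand 57.5% of all tested genes called in either direction, and 58.4% without Cre MCD 3. The part of stellate and myofibroblast RNA in the results for *Lum*, *Dcn*, *Bgn*, *Sparc*, *Thbs1* and *Lox* was not tested.

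Other cell types were read the same way, beside 57.5% of all genes called on MCD in Cre mice and 45.0% in FLCN KO mice. Hepatocyte markers, led by *Alb*, summed to 138179 ± 17987 CPM in Cre Chow and 97887 ± 15240.4 CPM in Cre MCD, and to 114115 ± 21081 and 78348 ± 8295 CPM in FLCN KO mice. The 11 macrophage markers, led by *Cd5l*, had 6 risen and 2 fallen on MCD in Cre mice and 3 each in FLCN KO mice. The 9 endothelial markers, led by *Stab2*, had 1 risen and 6 fallen, and 0 and 7. Portal fibroblast and mesothelial markers were highest in Cre MCD 3 for 9 of 11, smooth muscle markers for 5 of 6, and adipocyte markers, led by *Fabp4*, for 5 of 6. *Lep* was at 0 in every library. The most abundant genes of the first 2 lists were not highest there. *Entpd2* was 4.87 CPM in Cre MCD 3 and up to 18.5 CPM elsewhere, and *Smtn* 8.86 and up to 12.9 CPM. No share of all tested genes highest in Cre MCD 3 among the 22 livers is given beside these counts. Of 3 tested genes of the platelet list 2 rose in Cre mice, with *Gp1bb* at 0 throughout. *Clec1b* alone held 15.7 of the 21.7 CPM of this list in Cre MCD, and which cells its reads came from was not tested. Of 5 bile duct markers, led by *Sox9*, 2 rose in Cre mice. Skeletal muscle markers averaged 788 CPM in Cre MCD and 54.5 CPM without Cre MCD 3, where Cre MCD 4 held 181, Cre MCD 1 27.8, Cre MCD 2 5.60 and Cre MCD 5 2.97 CPM, beside 17.8 to 32.9 CPM in Cre Chow. FLCN KO MCD 3 held 86.8 CPM, against 3.51 to 5.25 CPM in the other livers of its group. In the fit 14 of the 15 rose and 0 fell on MCD in Cre mice with all libraries, and 13 rose and 1 fell with Cre MCD 3 left out.

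**Figure D4:**
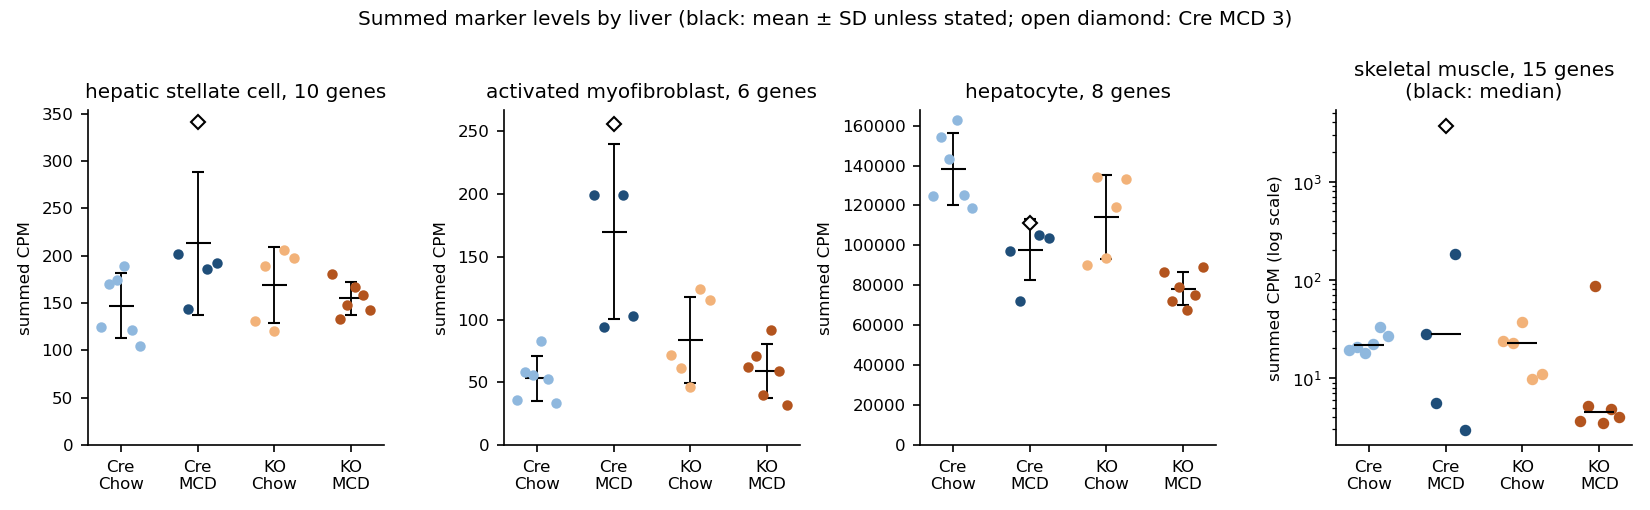
Summed TMM-scaled CPM of the markers of hepatic stellate cells, activated myofibroblasts, hepatocytes and skeletal muscle in each liver, the last on a log axis. Points are single mice, black bars are means ± SD (medians for skeletal muscle) and the open diamond is Cre MCD 3, which holds 3720 CPM of skeletal muscle markers and the highest stellate and myofibroblast sums.

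The wider pathway was followed with 8 lists of related genes, from which the 3 with the highest mean CPM, not corrected for length, and those with the largest interactions are named. Beside their counts stand 57.5% of all tested genes called on MCD in Cre mice, 45.0% in FLCN KO mice and 8.83% for the interaction. Among 14 other matricellular genes tested, 10 rose and 0 fell on MCD in Cre mice, and the median was 1.28 on the log2 scale. In FLCN KO mice 4 rose and 1 fell (median 0.13), and 5 had a negative interaction that passed. *Smoc2*, a SPARC-related glycoprotein, stood at 4.48 ± 1.84 CPM in Cre Chow and 111 ± 29.4 in Cre MCD, and it rose from 11.3 ± 2.76 to 52.5 ± 7.39 CPM in FLCN KO mice (SD), with an interaction of −2.39 (SE 0.32, edgeR adjusted p = 3.38e-04). *Spp1*, encoding osteopontin, went from 44.5 ± 10.1 to 117 ± 20.5 CPM in Cre mice and was 103 ± 46.2 and 91.6 ± 21.1 CPM in FLCN KO mice (interaction −1.56, edgeR adjusted p = 0.00467). *Tgfbi* (−1.06), *Fstl1* (−1.83) and *Thbs2*, the nearest relative of *Thbs1* in the list (−1.66), were the others. *Smoc1*, with the highest CPM of the list, rose in FLCN KO mice (0.82) with an interaction of 0.53 that did not pass, and *Ecm1*, the next, did not pass in either diet comparison.

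Of 23 elastic fibre, microfibril and other matrix glycoproteins, 16 rose and 2 fell on MCD in Cre mice (78.3% called, median 0.88), 2 rose and 4 fell in FLCN KO mice (26.1% called, median −0.31), and 10 were lower in FLCN KO than in Cre mice on MCD (8.53% of all genes down), 6 without Cre MCD 3 (8.31% down). A negative interaction passed for 10 of the 23, and for 7 without Cre MCD 3. The 10 included elastin, *Eln* (−2.19, edgeR adjusted p = 0.00826), and the latent TGF-beta binding proteins *Ltbp2* (−2.52), *Ltbp3* (−1.69) and *Ltbp1* (−1.51), with fibrillin-1, *Fbn1* (−1.52), which did not pass without Cre MCD 3 (−1.30, edgeR adjusted p = 0.079). *Vtn*, which encodes the hepatocyte plasma protein vitronectin, had the highest CPM of the list and, like *Fn1*, fell in both genotypes, by −1.03 and −0.96 on the log2 scale. *Ltbp4* and *Emilin1* followed it in CPM, and *Emilin1* had an interaction of −0.997.

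Among 18 collagen processing and cross-linking enzymes other than *Lox* and *Loxl2*, 9 rose and 5 fell on MCD in Cre mice, and 3 rose and 9 fell in FLCN KO mice. The interaction was negative and passed for 6 and positive for 1, *Pcolce2* (1.01, named after its value was seen). *Loxl1*, the elastin-directed lysyl oxidase, had an interaction of −2.08 (edgeR adjusted p = 0.00307), *Adamts2*, a procollagen peptidase, one of −1.95, and *Serpinh1*, the collagen chaperone, one of −1.58. *Plod2*, a lysyl hydroxylase (−2.03), and *Pcolce* (−1.29), an enhancer of procollagen cleavage, were also among them. *Ppib*, *Tgm2* and *Bmp1* had the highest CPM, *Tgm2* with an interaction of −0.69 that passed, and *Bmp1* fell in both genotypes (−1.18 and −0.77). With Cre MCD 3 left out the interactions of *Tgm2* (edgeR adjusted p = 0.054) and *Pcolce2* (0.069) no longer passed, while those of *Bmp1* (0.51, adjusted p = 0.038) and *Plod1* (−0.61, adjusted p = 0.035) did.

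Of 7 other small leucine-rich proteoglycans 2 rose on MCD in Cre mice, and 1 rose and 1 fell in FLCN KO mice. *Podn* was the 1 with an interaction that passed (−1.53, edgeR adjusted p = 0.014), and *Tsku*, *Prelp* and *Omd* had the highest CPM. Of 15 other proteoglycans and link proteins, 6 rose and 3 fell in Cre mice, and 1 rose and 7 fell in FLCN KO mice. The hepatocyte syndecans *Sdc4* (−1.36 and −0.98) and *Sdc2* (−0.79 and −0.41) fell in both, and *Sdc1* fell in FLCN KO mice (−0.56). *Gpc1*, *Hapln4*, *Prg4* and perlecan, *Hspg2*, had negative interactions of −2.36, −1.65, −1.29 and −0.86 that passed. With Cre MCD 3 left out *Hapln4* no longer passed, while *Sdc2* passed with a positive interaction (0.48, edgeR adjusted p = 0.027).

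The 29 genes for enzymes that build and edit glycosaminoglycan chains, heparan sulphate as well as the chondroitin and dermatan sulphate that decorin, biglycan and versican carry, had 11 risen and 8 fallen in Cre mice (65.5% called) and 5 each in FLCN KO mice (34.5% called). Without Cre MCD 3, 8 rose and 8 fell in Cre mice. With and without it 0 passed for the interaction, with *Ndst1*, *Hs6st1* and *Ext1* highest in CPM. Of 4 proteoglycan-cleaving ADAMTS proteases 2 rose in Cre mice (*Adamts15* and *Adamts5*), and in FLCN KO mice *Adamts15* rose and *Adamts9* fell. *Adamts9* (−1.73) and *Adamts5* (−1.13) had interactions that passed, *Adamts5* not without Cre MCD 3, and *Adamts1* did not. Of 17 receptors, 6 rose and 0 fell in Cre mice, and 3 rose and 6 fell in FLCN KO mice. *Cd36*, a thrombospondin-1 receptor and fatty acid transporter, rose in both (3.24 and 2.40), *Itgb1* and *Cd47* fell in FLCN KO mice (−0.26 and −0.24), and *Tlr2*, a receptor for soluble biglycan, *Ddr1* and *Itga4* had interactions of −1.96, −1.91 and −1.56 that passed.

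**Figure D5:**
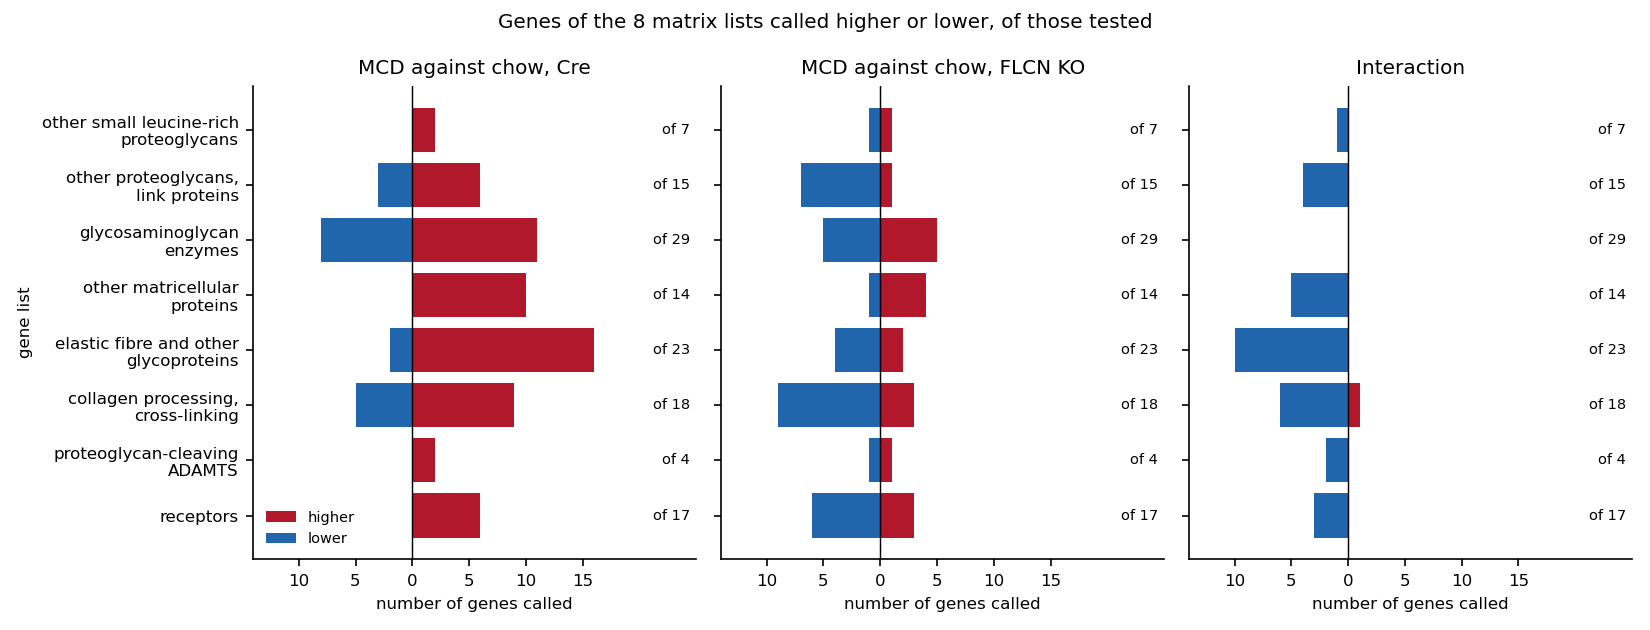
Number of genes called higher (red) or lower (blue) at an edgeR adjusted p of 0.05 in each of 8 lists of matrix-related genes, with the number tested at the right. The lists are shown for MCD against chow in Cre mice, the same in FLCN KO mice, and the interaction, where no list has more than 1 gene called higher.

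The 9 tested genes also varied together between mice of a group. Over 36 pairs, the correlation of their deviations from the group means in the 22 livers, which share libraries and depth, had a median of 0.63 and ran from 0.085 for *Fn1* with *Loxl2* to 0.84 for *Lum* with *Bgn*. *Fn1* had the lowest median over its pairs, 0.37, and *Bgn* the highest, 0.74. With Cre MCD 3 left out the median over all pairs was 0.65. These are descriptions with no test, and no value over all gene pairs is given beside them. On chow the deviations also hold the split by sex and mapped share. In FLCN KO Chow *Bgn* averaged 132 CPM in females and 83.3 CPM in males. There *Lum* averaged 17.5 and 9.91 CPM, and *Sparc* 130 and 87.3 CPM.

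The genes with the most similar profiles over all 22 livers were named for each of the 9, as a description. *Lum* was closest to *Pam* (Pearson r 0.94, Spearman rho 0.93), *Tgfbi* and *Col6a3*, *Bgn* to *Rcn1* (0.89, rho 0.93), *Serpinh1* and *Col5a1*, and *Sparc* to *Pcolce* (0.89, rho 0.87), *Tmem165* and *Rcn3*. *Postn* was closest to *Fbn1* (0.87, rho 0.78), *Pdzrn3* and *Heg1*, *Thbs1* to *Col1a2* (0.90, rho 0.84), *Myof* and *Ptafr*, and *Lox* to *Thbs1* (0.91, rho 0.85), *Hivep3* and *Lum*. *Dcn* was closest to *Vcam1* (0.93, rho 0.95), *Igf1r* and *Aim2*, and *Loxl2* to *Slc25a24* (0.92, rho 0.90), *Cers5* and *Bicc1*. *Fn1* was closest to *Gm4756* (0.95, rho 0.95), *Sned1* and *Cyp2c50*. After leaving out Cre MCD 3 the r of these first-ranked pairs stayed between 0.84 and 0.95.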

How the data were processed

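Livers of 22 mice, 1 library each, were sequenced as mRNA on a NextSeq500 with single-end reads. The authors trimmed reads with Trimmomatic, aligned them with STAR to GRCm38 and counted reads per gene with HTSeq, and the deposited values are these raw counts. Versions, the annotation release, the strand setting and any collapsing of molecular identifiers are not given in the sources used here. Counts with a mean of at least 10 over the libraries (14062 of 55573 genes) were scaled by TMM and fitted with edgeR 4.0.16 (R 4.3.3) as 4 groups in 1 quasi-likelihood model, with p-values adjusted over these genes (Benjamini-Hochberg) and calls at an adjusted p of 0.05. The 95% intervals use the model's degrees of freedom. The comparisons share libraries. Named genes of the lists were the 3 with the highest mean CPM and up to 5 with the largest interactions that passed, and for each of the 9 tested genes the 3 nearest by Pearson r of log2 CPM (prior count 2) among genes of at least 1 CPM. The 10 genes and all lists were chosen with earlier results of these data known. Alternatives were limma-voom 3.58.1, DESeq2 1.42.0, RLE factors, other minimum counts, only the groups compared, a replicate block, sex as a covariate, and leaving out libraries. Each mouse is 1 sample, and intervals on summed reads cover counting error only.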

Additional observations from a re-analysis of the deposited data

Results flagged for a closer look

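The response to MCD differed between the genotypes by the test of the difference itself for 3 of the 9 tested genes: *Lum* (interaction −1.22 on the log2 scale), *Bgn* (−0.91) and *Sparc* (−0.98). Of all tested genes 8.83% passed this test, 3.29% up and 5.54% down. The *Sparc* call was lost without the low mapped chow libraries. It was also lost without any 1 of Cre MCD 1, Cre MCD 4, FLCN KO Chow 4 and FLCN KO Chow 5. With a replicate block neither *Lum* nor *Sparc* passed. In 2 of 40 sets of 1 gene in 1 group, a single library stood apart from the rest, where chance flags about 1 in 20 groups. *Vcan* in Cre Chow 5 was 0.271 CPM, from 4 reads, against at most 1 read in the other 5 Cre Chow livers. *Fn1* in FLCN KO Chow 2 was 1933 CPM, against 1251 to 1423 CPM in the other 4 livers of its group.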

How the results depend on the processing

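Among the 9 genes, 4 to 8 rose on MCD in Cre mice over the alternatives (4 without Cre MCD 3 and the low mapped chow libraries) and 5 to 8 with 1 library left out. Over the alternatives 2 to 5 were lower in FLCN KO mice on MCD and 1 to 4 passed for the interaction. With total counts in place of TMM factors, 0 fell on MCD in Cre mice, 1 fell in FLCN KO mice and 3 were higher in FLCN KO mice on chow. That scaling moved the median log2 fold change of all genes by 0.42, 0.26, 0.15, −0.011 and −0.16 in the 5 comparisons (MCD in Cre, MCD in FLCN KO, genotype on chow, genotype on MCD, interaction), and the share of calls that were up went from 50.9 to 81.9%, 50.0 to 77.0%, 64.0 to 92.1% and, for the interaction, 37.3 to 12.5%. On MCD in FLCN KO mice 1 gene rose under limma-voom, no minimum count, only the groups compared or sex as a covariate, and 0 without the low mapped chow libraries, with or without Cre MCD 3. On chow 2 genes were higher in FLCN KO mice under DESeq2 and 0 with only the groups compared. With 10 counts required in every library, 2 were lower on MCD of the 7 genes then tested, which leave out *Thbs1* and *Lox*.

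Same-numbered libraries correlated at a mean of 0.13 at most between groups, with single pairs from −0.55 to 0.47. These values do not decide whether replicate numbers pair the mice, and the main fit did not pair them. With a replicate block 2 genes were lower in FLCN KO mice on MCD, 1 passed for the interaction (*Lum* and *Sparc* did not, with edgeR adjusted p = 0.050 and 0.056), and 552 genes against 1242 passed for the interaction in all. Without the low mapped chow libraries the latter was 779, and 494 against 1212 genes differed between genotypes on chow (653 also without Cre MCD 3). The cause of these shifts was not tested. With no minimum count, 80.2% of the calls on chow and 25.1% of those for the interaction were up.

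Signs changed for small estimates. Diet comparisons without the low mapped chow libraries set female chow livers against MCD livers of both sexes. Without the low mapped chow libraries, *Lum* and *Postn* in FLCN KO mice were −0.21 and −0.037, and *Dcn* and *Postn* between genotypes on chow −0.048 and −0.016 (−0.21, −0.037, −0.048 and −0.015 also without Cre MCD 3). With the block *Postn* on chow was −0.013. Leaving out 1 library at a time gave 0 to 2 risen genes in FLCN KO mice, 0 to 2 higher on chow, 1 to 5 lower on MCD (1 without Cre MCD 3) and 2 to 5 for the interaction. It also gave −0.061 to 0.15 for *Lum* in FLCN KO mice, −0.0012 to 0.19, −0.16 to 0.20 and −0.026 to 0.35 for *Dcn*, *Postn* and *Thbs1* on chow, −0.033 to 0.40 for *Loxl2* on MCD and −0.21 to 0.039 for the *Fn1* interaction. Depth limits *Vcan* and *Lox*, with under 10 reads in each Cre Chow library.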
